A study of Mus musculus with 6 samples.

Results

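The miR-199 and miR-214 family was described in epididymal white adipose tissue (WAT) of Wt and Agt Tg mice. Its members were chosen by name, as every arm of miR-199a, miR-199b and miR-214 in a table of 1983 miRNAs, which gave 6 members. Of these, 5 were above the lower limit of the table in at least 3 of the 6 libraries and were tested among 329 miRNAs, and the other, miR-199b-5p, was not tested. miR-199a-3p and miR-199b-3p held the same value in every library, because their mature sequences are the same, so the 5 tested members carried 4 distinct sets of values.

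The study compared male C57BL6/J mice of the wild type (Wt, 3 libraries) with male mice on the same strain carrying an angiotensinogen transgene (Agt Tg, 3 libraries), asking which miRNAs differ when the renin-angiotensin system is overactive in fat. The transgene was driven by the aP2 promoter, which is active in adipocytes and is also known to be active in macrophages. The sample labels give a chow diet for both genotypes, whereas the study's methods give a low fat diet, and the age of the mice is not given in the sources used here. Small RNA libraries were sequenced from Trizol RNA of frozen epididymal fat. The labels do not state that the 3 libraries of a genotype came from separate animals, so p-values measure the spread between these samples.

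A miRNA gene is transcribed into a longer RNA that folds into a hairpin, and each side of the hairpin can give a mature miRNA, called the 5p or the 3p arm. The arm that is kept guides silencing of mRNAs, mainly through its seed, the bases near its 5′ end. miR-199a and miR-214 are known from mesenchymal cells such as fibroblasts and from fibrosis, and Mir199a-2 and Mir214 are known to be cut from the same noncoding RNA, Dnm3os.

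The mature sequences show which members are the same molecule and which share a seed. RefSeq (GRCm38.p6) gave a mature sequence for 5 of the 6 members, the exception being miR-199b-5p. They are written 5′ to 3′ with the seed, bases 2 to 8, in capitals.
miR-199a-3p and miR-199b-3p: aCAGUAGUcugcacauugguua
miR-199a-5p: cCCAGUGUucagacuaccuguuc
miR-214-3p: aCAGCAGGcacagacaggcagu
miR-214-5p: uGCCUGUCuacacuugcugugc
The 4 distinct sequences had 4 different seeds. The 3p arms of miR-199a and miR-214 differed at 14 of 22 bases but at only 2 of the 7 seed bases, U5C and U8G (the miR-199a-3p base first, counted from 1 at the 5′ end). The seed of miR-214-3p was shared with miR-761, which was at the lower limit in all 6 libraries.

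The hairpins show where the arms come from. They are printed from RefSeq (GRCm38.p6), 5′ to 3′, with the listed mature arms in capitals.
Mir199a-1: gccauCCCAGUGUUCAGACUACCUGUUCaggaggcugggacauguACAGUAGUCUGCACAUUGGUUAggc
Mir199a-2: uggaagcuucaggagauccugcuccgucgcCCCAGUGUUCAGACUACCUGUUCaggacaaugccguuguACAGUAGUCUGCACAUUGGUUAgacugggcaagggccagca
Mir199b: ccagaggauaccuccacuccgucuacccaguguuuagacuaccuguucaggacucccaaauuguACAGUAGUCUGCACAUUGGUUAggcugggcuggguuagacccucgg
Mir214: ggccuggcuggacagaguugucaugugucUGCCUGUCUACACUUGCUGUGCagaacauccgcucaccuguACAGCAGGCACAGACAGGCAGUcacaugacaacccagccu
The miR-199a-3p sequence was found in 3 hairpins, so its reads pool Mir199a-1, Mir199a-2 and Mir199b. The miR-199a-5p sequence was found in 2, Mir199a-1 and Mir199a-2, and each arm of miR-214 in Mir214 alone. Of the 4 distinct sequences, only the miR-214 arms can therefore be assigned to 1 gene. The Mir199b hairpin also holds the miR-199a-5p sequence with 1 base changed. The mismatches permitted in mapping are not known, so reads of that arm may be counted as miR-199a-5p.

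The 4 genes lie on 3 chromosomes of GRCm38, each within a dynamin gene on the opposite strand and outside its exons. Mir199a-1 lies at chr9:21496495-21496564 on the minus strand, within Dnm2. Mir199b lies at chr2:32318460-32318569 on the plus strand, within Dnm1. Mir199a-2 (chr1:162217814-162217923) and Mir214 (chr1:162223368-162223477) lie on the plus strand within Dnm3 and in exons of Dnm3os in GENCODE M21. Mir214 begins 5745 bases from the start of Dnm3os, and 5444 bases lie between the hairpins.

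Each value in the table is the log2 of reads per 10000000 reads of the library, and values under 10 had been raised to 10, which sets the lower limit of 3.32. Library totals were not given in the sources used here. They were worked out as the numbers that make every value above the limit a whole number of reads at this scale. Which reads they count is not known, and 51.8% to 57.2% of them lay on the listed miRNAs. The totals of Wt replicates 1, 2 and 3 were 7480766, 7838874 and 9821467 reads. Agt Tg replicates 1, 2 and 3 had 10367417, 6387766 and 10562634 reads, so that the shallowest and the deepest library were both Agt Tg. The limit stood for between 6.39 and 10.6 reads. The rows carry human names, so a row holds the mouse reads that matched that name's sequence. Levels of different miRNAs are compared here as reads of molecules of about the same length, and sequence preferences of library preparation, which act on such comparisons, were not measured. The libraries were made from whole tissue, so fewer cells of a type and less RNA per cell cannot be told apart.

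Wt replicate 2 stood apart from the other libraries. Its 6 tested epithelial miRNAs, of 8 listed, took 0.515% of all reads, compared with 0.0197% to 0.0274% in the other libraries. Its 2 tested epididymis and testis miRNAs, of 5 listed, took 0.879%, compared with 0.00867% to 0.0144%. The most abundant by mean level were miR-203a and miR-34c-5p, though miR-375 led the epithelial list in Wt replicate 2 (log2 value 15.10). miR-203a was not raised in Wt replicate 2 (10.86, compared with 10.77 to 11.21 in the other libraries). From these lists miR-200c-3p, miR-429, miR-34b-5p, miR-34c-3p and miR-449a were not above the lower limit in 3 libraries. The part of these miRNAs in the results on miR-199 and miR-214 was not tested. Results that depend on Wt replicate 2 are given with and without it. The exception is the lists of nearest profiles, where only the ranks of members are given without it.

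miR-199a-3p was by far the most abundant member, and none of the members passed the test for a difference between genotypes. All 5 tested members had a lower mean in Agt Tg than in Wt mice, in a table in which 222 of 329 miRNAs (67.5%) did so. The 3 Wt and 3 Agt Tg libraries overlapped in every member. miR-214-3p and miR-199a-5p were lowest in Agt Tg replicates 2 and 3, while Agt Tg replicate 1 lay within the Wt libraries.

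miR-199a-3p, the shared 3p arm of the miR-199 genes, had log2 values of 14.37, 15.23 and 13.90 in Wt replicates 1, 2 and 3 and of 14.59, 13.58 and 14.19 in Agt Tg replicates 1, 2 and 3. The highest library was Wt replicate 2 and the lowest Agt Tg replicate 2, and Wt replicate 3 lay below 2 of the 3 Agt Tg libraries, so that the groups overlapped. These values came from 30216 reads in the highest and 7833 reads in the lowest library, a 3.14-fold range per library total, which was 2.01-fold without Wt replicate 2. The mean was 14.50 ± 0.68 in Wt and 14.12 ± 0.51 in Agt Tg (log2, SD, n = 3 each), and the log2 fold change of −0.38 was smaller than its standard error of 0.39 (limma adjusted p = 0.691). With each library left out, the log2 fold change ran from −0.68 (without Wt replicate 3) to −0.016 (without Wt replicate 2). It was −0.62 without Agt Tg replicate 1 and −0.11 without Agt Tg replicate 2.

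miR-214-3p, the abundant arm of miR-214, had log2 values of 11.05, 11.36 and 11.45 in Wt replicates 1, 2 and 3 and of 11.15, 10.36 and 10.16 in Agt Tg replicates 1, 2 and 3. Agt Tg replicates 2 and 3 were below every Wt library, and Agt Tg replicate 1 was above Wt replicate 1. Reads numbered 1583, 2062 and 2741 in Wt and 2351, 841 and 1210 in Agt Tg libraries. The mean was 11.28 ± 0.21 in Wt and 10.56 ± 0.52 in Agt Tg (log2, SD, n = 3 each). The log2 fold change was −0.73 with a standard error of 0.30 and a 95% interval from −1.44 to −0.018. In limma its unadjusted p was 0.0458 and its adjusted p 0.522, and the fold change missed the threshold of 1 on the log2 scale. Over the 6 libraries it was the only member at an unadjusted p under 0.05, and over all 329 miRNAs 15 (4.56%) were at that p and lower in Agt Tg. Without Agt Tg replicate 1 the log2 fold change was −1.02, past the unadjusted threshold (limma adjusted p = 0.187, between 0.187 and 0.895 over all alternatives). In that fit 35 of the 329 miRNAs passed the same threshold, 25 of them lower in Agt Tg. The unadjusted limma p was above 0.05 under TMM scaling (0.0722, log2 fold change −0.60), under scaling to miR-191-5p (0.0656) and when any other single library was left out (0.0566 to 0.154).

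miR-199a-5p, whose sequence is found in the miR-199a hairpins, had log2 values of 10.69, 10.99 and 10.61 in Wt replicates 1, 2 and 3 and of 10.76, 9.86 and 10.01 in Agt Tg replicates 1, 2 and 3. The pattern over libraries was that of miR-214-3p, with Agt Tg replicates 2 and 3 below every Wt library and Agt Tg replicate 1 among them. The mean was 10.76 ± 0.20 in Wt and 10.21 ± 0.48 in Agt Tg (log2, SD, n = 3 each), from 594 to 1802 reads. The log2 fold change was −0.55 with a standard error of 0.29 (limma adjusted p = 0.531), and −0.83 without Agt Tg replicate 1, where the unadjusted limma p was 0.0120 and the adjusted p 0.187.

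miR-214-5p, the scarce arm of miR-214, had log2 values of 7.03, 7.67 and 6.79 in Wt replicates 1, 2 and 3 and of 6.98, 6.23 and 6.78 in Agt Tg replicates 1, 2 and 3. As in miR-199a-3p, Wt replicate 2 was highest and Agt Tg replicate 2 lowest. For miR-214-5p the other 4 libraries lay close together, between 6.78 and 7.03. This miRNA rested on 48 to 160 reads per library, with a counting error of 7.91% to 14.4%. The log2 fold change was −0.50 with a standard error of 0.36 (limma adjusted p = 0.587), and −0.25 without Wt replicate 2.

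The row named miR-199b-5p was at the lower limit in 5 libraries and had 12 reads in Agt Tg replicate 3. Since its name is human, how far it catches the mouse arm was not tested. It held 1.09% of the 1100 reads on the rows named miR-199a-5p and miR-199b-5p in that library (95% Wilson interval 0.625% to 1.90%, counting error only). In the other libraries the table does not tell reads under the limit from none.

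**Figure D1:**
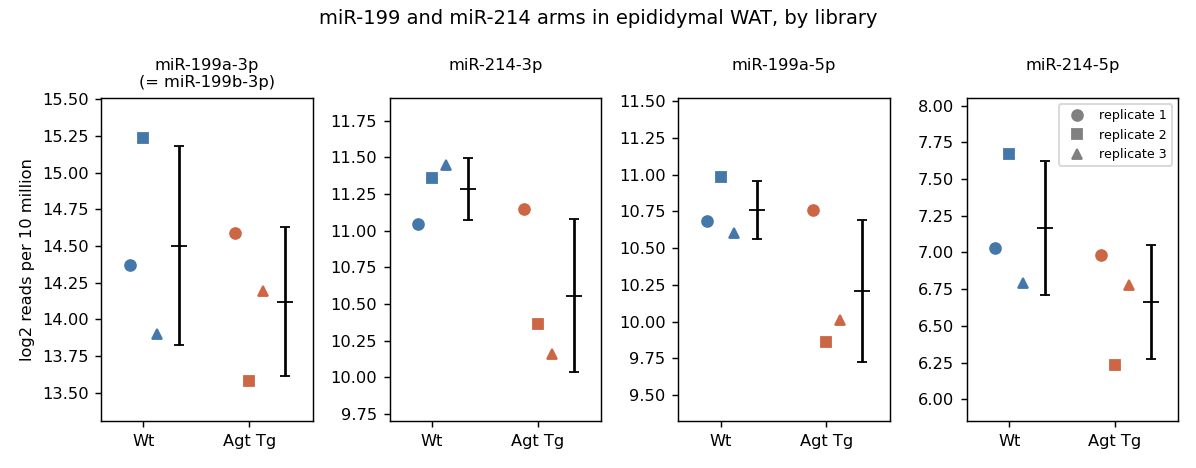
Log2 of reads per 10000000 (y axis) of the 4 distinct member values in Wt (blue) and Agt Tg (orange) libraries, each panel spanning the same log2 range, with points for libraries and black bars for the mean ± SD. The groups overlap in every panel, and for miR-214-3p Agt Tg replicates 2 and 3 (10.36 and 10.16) lie below the lowest Wt library (11.05).

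Against the whole table, the members' differences were not unusual in size. The number of members past the threshold (unadjusted p of at most 0.05 and absolute log2 fold change of at least 1) was 0 of 5, where 16 of 329 miRNAs (4.86%) passed it. At a limma adjusted p under 0.05 there were 0 of 5 members and 0 of all 329 (0%), with 30 of the 329 at an unadjusted p under 0.05 and a smallest adjusted p of 0.382, and limma-voom likewise gave 0. The number of members whose groups did not overlap was 0 of 5, compared with 58 of 329 (17.6%). The median log2 fold change of the 5 members was −0.50, or −0.53 with the shared values counted once, and that of all tested miRNAs −0.19. Relative to that median, the log2 fold changes were −0.19 for miR-199a-3p, −0.54 for miR-214-3p, −0.36 for miR-199a-5p and −0.32 for miR-214-5p. Without Wt replicate 2, and relative to the median of that fit, they were 0.16, −0.51, −0.26 and −0.074 in the same order. The value for miR-199a-3p was also above that median without Agt Tg replicate 2 (0.024). In the order of all log2 fold changes, 15.2% of tested miRNAs were at or below miR-214-3p and 31.9% at or below miR-199a-3p. TMM scaling moved the median of all tested miRNAs to −0.060 and left every member's log2 fold change negative.

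**Figure D2:**
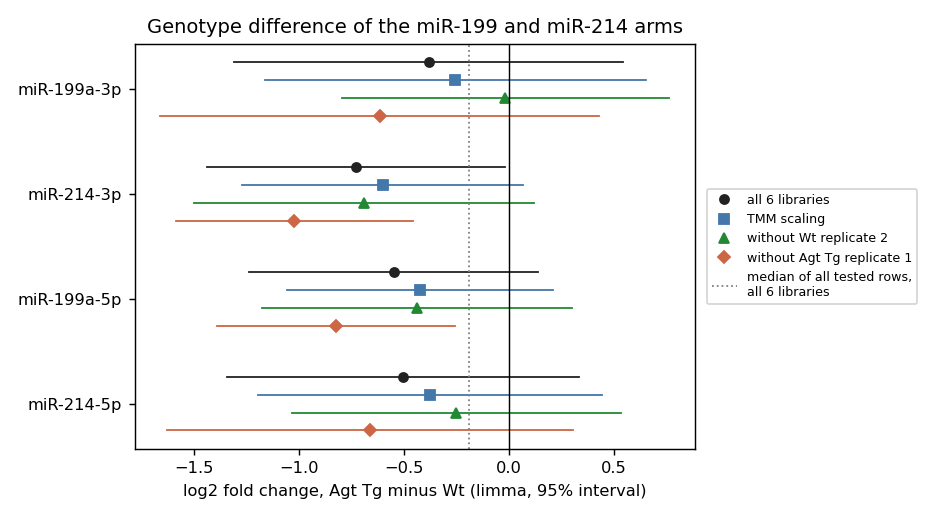
Log2 fold change, Agt Tg minus Wt, with the 95% limma interval (x axis) of each distinct member (y axis) over all 6 libraries, under TMM scaling, without Wt replicate 2 and without Agt Tg replicate 1. The dotted line is the median of all tested miRNAs (−0.19), and miR-199a-3p moves from −0.38 to −0.016 without Wt replicate 2.

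The order of levels was miR-199a-3p, miR-214-3p, miR-199a-5p and miR-214-5p in each of the 6 libraries. On the scale of reads per library total, miR-199a-3p was 5.48- to 16.3-fold above miR-214-3p, and miR-214-3p was 1.11- to 1.79-fold above miR-199a-5p. By mean log2 level, miR-199a-3p ranked 35 of 329, between miR-150-5p (14.42) and miR-127-3p (14.29), and miR-126-3p (14.45) and let-7d-5p (14.08) were the next on either side. These means were closer to that of miR-199a-3p (14.31) than its SD over the 6 libraries (0.57). miR-214-3p ranked 91, between miR-532-5p and miR-30e-3p, and miR-199a-5p ranked 99, between miR-328 and miR-30c-2-3p. miR-214-5p ranked 187, between miR-10b-3p and miR-30c-1-3p. The neighbours named in these orders differed from the member beside them by less than that member's SD.

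Together, with shared values counted once, the members took 0.251%, 0.434% and 0.198% of all reads in Wt replicates 1, 2 and 3 and 0.288%, 0.146% and 0.210% in Agt Tg replicates 1, 2 and 3. Wt replicate 2 was highest (95% Wilson interval 0.430% to 0.439%, counting error only) and Agt Tg replicate 2 lowest (0.143% to 0.149%), with the groups overlapping. The mean share was 0.294% ± 0.124 in Wt and 0.214% ± 0.0710 in Agt Tg (SD, n = 3 each). The difference of −0.0797 percentage points was smaller than the SD in Wt and slightly larger than that in Agt Tg (two-sided exact permutation test, p = 0.5, where 0.1 is the smallest that 3 against 3 allow). With each library left out it ran from −0.128 percentage points (without Wt replicate 3) to −0.00979 (without Wt replicate 2), and it was −0.0454 without Agt Tg replicate 2. miR-199a-3p made up between 77.4% and 89.1% of these reads, so the summed share follows that miRNA.

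The members varied among libraries in different degrees. Within genotypes the SD of the log2 value was 0.60 for miR-199a-3p, 0.42 for miR-214-5p, 0.40 for miR-214-3p and 0.37 for miR-199a-5p. The median over the 270 miRNAs above the lower limit in all libraries was 0.38, so that 1 of the 4, miR-199a-3p, ranked well above it, at 55 of 270. Without Wt replicate 2 the SDs were 0.46 for miR-199a-3p, 0.33 for miR-214-5p, 0.46 for miR-214-3p and 0.40 for miR-199a-5p, with a median of 0.31 over the 270. They then ranked 68, 126, 71 and 97 in the same order. miR-214-3p was thus beside miR-199a-3p, where it had ranked 127 over the 6 libraries.

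The ratio of the 3p to the 5p arm compares reads of the same library and does not depend on scaling between libraries. For miR-199a its log2 was 3.68, 4.25 and 3.30 in Wt replicates 1, 2 and 3 and 3.82, 3.72 and 4.18 in Agt Tg replicates 1, 2 and 3. The 3p arm was thus 9.83 to 19.0 times the 5p arm, and the Agt Tg libraries lay inside the range of the Wt libraries. The 3p reads also hold those of Mir199b, so this is a ratio of pools and not of 1 hairpin. The mean log2 ratio was 3.74 ± 0.48 in Wt and 3.91 ± 0.24 in Agt Tg (SD, n = 3 each), a difference of 0.17 (two-sided exact permutation test, p = 0.6, adjusted over both ratios 0.6).
For miR-214, both arms of which come from 1 hairpin, the log2 ratio was 4.01, 3.69 and 4.65 in Wt replicates 1, 2 and 3 and 4.17, 4.13 and 3.38 in Agt Tg replicates 1, 2 and 3. The 3p arm was 10.4 to 25.1 times the 5p arm, with Wt replicate 3 highest and Agt Tg replicate 3 lowest. The mean log2 ratio was 4.12 ± 0.49 in Wt and 3.89 ± 0.44 in Agt Tg (SD, n = 3 each), a difference of −0.22 (two-sided exact permutation test, p = 0.6, adjusted 0.6). Neither ratio parted the groups, where 6 of 60 miRNAs with both arms above the lower limit in all libraries (10%) did so. Both differences changed sign when a single library was left out, at −0.056 for miR-199a without Wt replicate 3, and at 0.042 and 0.030 for miR-214 without Wt replicate 3 and without Agt Tg replicate 3. Without Wt replicate 2 the differences were 0.42 for miR-199a and −0.44 for miR-214. The SD over the 6 libraries was 0.35 for miR-199a and 0.44 for miR-214, near the median of 0.37 over the 60.

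**Figure D3:**
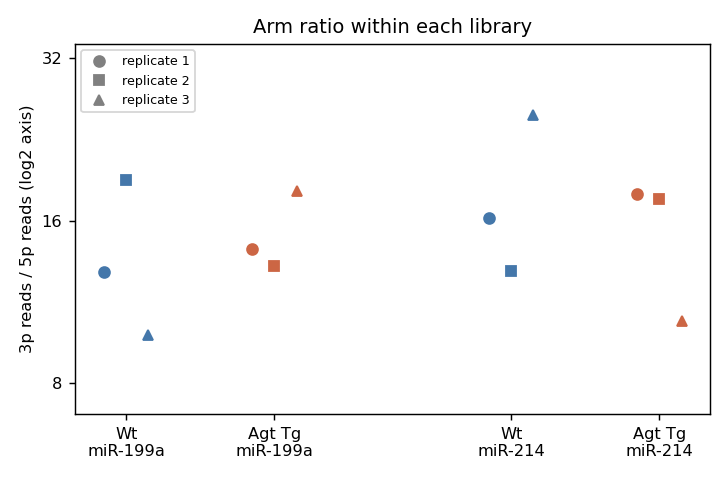
Reads of the 3p arm divided by reads of the 5p arm (y axis, log2 scale) in each Wt (blue) and Agt Tg (orange) library, for miR-199a and miR-214. The ratio lies between 9.83 and 19.0 for miR-199a and between 10.4 and 25.1 for miR-214, and the groups overlap in both.

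How alike the members were over the 6 libraries was described by the root mean square difference of their log2 values after each had its own mean subtracted, where 0 means the same profile. The closest members were miR-199a-3p and miR-214-5p, at 0.16, and miR-214-3p and miR-199a-5p, at 0.21, with miR-199a-5p and miR-214-5p nearly as close, at 0.22. The median of miR-199a-3p against all other tested miRNAs was 0.63, and that of miR-214-3p was 0.55. The arms of the Mir214 hairpin, miR-214-3p and miR-214-5p, were less alike, at 0.40. miR-199a-3p and miR-199a-5p, whose sequences are found in different sets of hairpins, were at 0.32. miR-199a-3p and miR-214-3p differed most, at 0.51, where Wt replicate 3 was low in the former and highest in the latter. Without Wt replicate 2, miR-199a-3p and miR-214-5p were still at 0.16, against a median of 0.45 for miR-199a-3p and all others, while miR-214-3p and miR-199a-5p were at 0.23 and miR-199a-5p and miR-214-5p at 0.21.

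Over all tested miRNAs, the profiles nearest to miR-199a-3p were those of miR-136-5p (0.15), miR-214-5p (0.16), miR-301a-3p (0.19), miR-30d-3p (0.23) and miR-3619-3p (0.24). Once Wt replicate 2 was left out, miR-214-5p ranked 7 of 327 in likeness to miR-199a-3p, where it had ranked 2. The nearest to miR-214-3p were miR-18a-5p (0.16), miR-142-5p (0.18), miR-324-3p (0.18), miR-146a-5p (0.19) and miR-199a-5p (0.21). Leaving out Wt replicate 2 moved miR-199a-5p from rank 5 to rank 16 of 328 in likeness to miR-214-3p. miR-3619-3p was at the lower limit in 1 library and miR-18a-5p in 2, so their profiles are partly set by that limit. miR-142-5p, a miRNA of blood cells, belongs to the leukocyte list.

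The median of the leukocyte miRNAs was low in the same libraries as miR-214-3p and miR-199a-5p. Of the 6 listed, 5 were tested and 5 had a negative log2 fold change, with a median of −0.56, and 0 passed the threshold. All 5 stayed negative under TMM scaling (median −0.43) and without Wt replicate 2 (−0.71). Their median log2 value, after each had its own mean subtracted, was 0.45, 0.17 and 0.27 in Wt replicates 1, 2 and 3 and 0.28, −0.53 and −0.67 in Agt Tg replicates 1, 2 and 3. As for miR-214-3p, Agt Tg replicates 2 and 3 stood below the rest and Agt Tg replicate 1 lay among the Wt libraries. The list took 0.450%, 0.435% and 0.458% of all reads in Wt and 0.442%, 0.328% and 0.293% in Agt Tg libraries. Of the 5 tested, miR-142-5p and miR-142-3p, arms of the same hairpin, and miR-223-3p were lowest in Agt Tg replicates 2 and 3. The list's most abundant miRNA, miR-150-5p (mean log2 value 14.42), was instead lowest in Agt Tg replicate 1 (14.21). Its Agt Tg libraries all lay below every Wt library, where 58 of all 329 miRNAs (17.6%) had groups that did not overlap. miR-342-3p was lower in Wt replicate 2 (10.78) than in Agt Tg replicate 2 (10.86). In this list miR-155-5p was not above the lower limit in 3 libraries. The part of leukocytes in the values of miR-214-3p and miR-199a-5p was not tested.

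**Figure D4:**
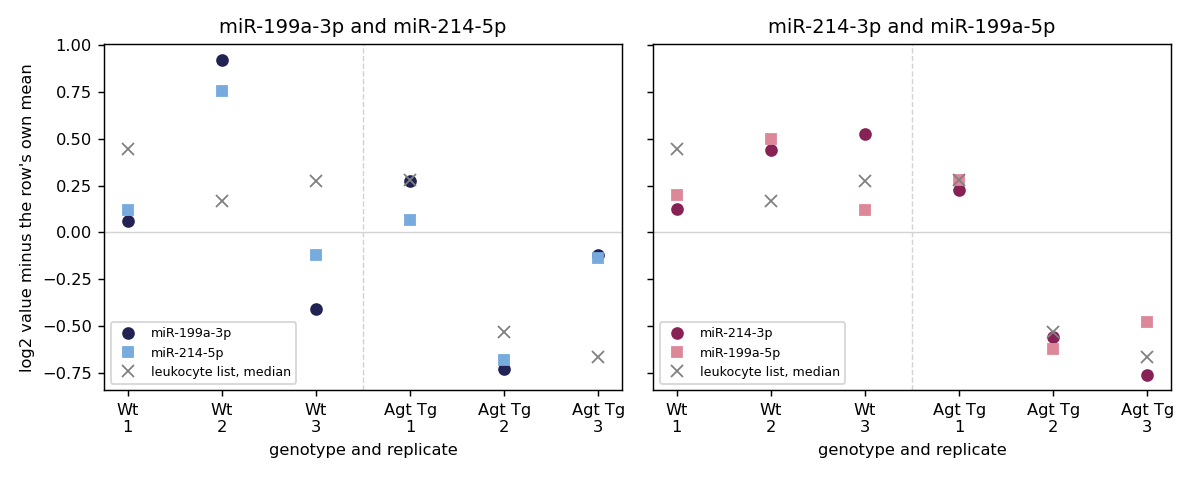
Log2 value minus the miRNA's own mean over the 6 libraries (y axis) in each library (x axis), for miR-199a-3p and miR-214-5p on the left and miR-214-3p and miR-199a-5p on the right, with the median of the leukocyte list as crosses. In Agt Tg replicates 2 and 3 the leukocyte median is −0.53 and −0.67, and on the left Wt replicate 2 is highest for both miRNAs.

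The lists used here hold no miRNA known to mark fibroblasts alone, so the cell type behind the members could not be checked from the table. Other miRNAs linked to fibroblasts and fibrosis (miR-21-5p, miR-22-3p, miR-29a-3p, miR-29b-3p, miR-29c-3p and miR-152) were all tested, and 0 of 6 passed the threshold. Of these, 4 were lower and 2 higher in Agt Tg, with a median log2 fold change of −0.14. Under TMM scaling 3 were lower and 3 higher (median −0.012), as they were without Wt replicate 2 (−0.043). Their most abundant, miR-22-3p, had a mean log2 value of 19.16 and a log2 fold change of −0.054. The list was not chosen for a shared direction of change in fibrosis, so its counts and median do not measure fibrosis.
The 3 miRNAs of mural and smooth muscle cells, another mesenchymal type, were miR-143-3p, miR-145-5p and miR-145-3p, the miR-145 arms coming from the same hairpin. They were all higher in mean in Agt Tg, with a median of 0.24, or 0.37 under TMM scaling, and 0 passed the threshold. The adipocyte list had 6 of 7 tested, 3 lower and 3 higher, with a median of −0.016 and 0 past the threshold, and under TMM scaling 1 was lower and 5 higher (0.11), while without Wt replicate 2 there were 5 lower and 1 higher (−0.14). No difference between the members and any list was tested.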

How the data were processed

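Small RNA libraries of 3 Wt and 3 Agt Tg samples of epididymal WAT were grouped by the sample labels. The authors mapped reads to miRBase precursors and selected mature miRNAs, and neither the miRBase release nor the permitted mismatches are given in the sources used here. Values deposited by the authors were the log2 of reads per 10000000, raised to at least 10. This was worked out from the values, of which 1924 of 1924 above the limit were whole reads within 0.02 reads, and no other scaling was visible.

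Rows above the limit in at least 3 libraries (329) were tested with limma 3.58.1 in R 4.3.3, with a trended prior variance, genotype alone and Benjamini-Hochberg adjustment over all of them. The threshold combined an unadjusted p of at most 0.05 and a log2 fold change of at least 1 in either direction. Shares and arm ratios were tested by exact permutation in Python 3.11.15 (scipy 1.17.1), and figures drawn with matplotlib 3.10.9. The fit was tested on simulated data with 40 of 329 rows changed 4-fold and the same spread for every row. The threshold recovered 92.6% of the changed rows and called 0.727% of the others. Changes as small as those of the members were not simulated. Named miRNAs were the members, the 5 profiles nearest to miR-199a-3p and to miR-214-3p, the neighbours in level, and context lists of fibroblast, mural, adipocyte, endothelial, leukocyte, erythroid, skeletal muscle, epithelial, and epididymis and testis miRNAs. Members and lists were chosen with earlier results of these data known. Alternatives were log2(CPM + 1), TMM scaling (30% of log ratios and 5% of levels trimmed), scaling to miR-191-5p, limma-voom on recovered reads, no filter, a mean CPM of at least 10, the replicate number as a block, and leaving out each library. Spread and likeness without Wt replicate 2 were added after seeing the data. For shares they were reads on listed miRNAs as the denominator and counting shared values for each row. Hairpins and mature sequences were matched by name.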

Additional observations from a re-analysis of the deposited data

How the results depend on the processing

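Over 13 alternatives the log2 fold change stayed negative in each of the 5 tested members. It lay between −0.68 and −0.016 for miR-199a-3p, −1.02 and −0.53 for miR-214-3p, −0.83 and −0.37 for miR-199a-5p, and −0.69 and −0.25 for miR-214-5p. The choice of filter and the replicate block cannot change a log2 fold change here, and scaling shifts that of every miRNA by the same amount. Since miR-199b-3p also repeats miR-199a-3p, the 13 alternatives are not separate checks of direction. Only miR-214-3p crossed the unadjusted threshold, at −1.02 without Agt Tg replicate 1, where miR-199a-5p had an unadjusted limma p of 0.0120 and missed it on fold change. With each library left out miR-214-3p lay between −1.02 and −0.53. The count of miRNAs past the threshold was 16, and 7 on log2(CPM + 1), where CPM scales reads to a fixed library size, 3 at a mean CPM of at least 10, where 209 were tested, and 12 to 35 with each library left out (35 without Agt Tg replicate 1). Under TMM scaling 10 were higher and 5 lower, compared with 9 and 7. Without Agt Tg replicate 1 there were 10 higher and 25 lower, and without Agt Tg replicate 3 there were 9 higher and 4 lower. With each library left out, the difference in log2 arm ratio lay between −0.056 and 0.42 for miR-199a and between −0.44 and 0.042 for miR-214, with 0.42 and −0.44 both without Wt replicate 2. It changed sign without Wt replicate 3 for both (−0.056 and 0.042) and without Agt Tg replicate 3 for miR-214 (0.030). The causes were not tested, beyond the fewer samples or miRNAs of these settings. With the replicate number as a block 17 miRNAs passed the threshold, and the unadjusted limma p of miR-214-3p was 0.0846. Same-numbered libraries deviated with correlations of 0.22, −0.18 and −0.21 across miRNAs, and differently numbered ones with −0.30 to 0.28. These values give no sign of pairing by number. Few reads limit miR-214-5p and miR-199b-5p.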

Other observations

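None of the erythroid, endothelial or skeletal muscle miRNAs passed the threshold. The 4 erythroid miRNAs all had a higher mean in Agt Tg (median log2 fold change 0.34), from 0.15 for miR-486-5p, the most abundant, to 0.53 for miR-144-3p. Of these, miR-144-3p and miR-144-5p are arms of the same hairpin. Without Wt replicate 2 the list had 2 of 4 higher and a median of 0.10. Both endothelial miRNAs, miR-126-3p and miR-126-5p, had a higher mean (median 0.23), and miR-126-5p was the more abundant. They are arms of the same hairpin. Of the 4 skeletal muscle miRNAs only miR-133a was tested (−0.51), and it was highest in Wt replicate 2 (10.72), without which its log2 fold change was 0.012. The epithelial list had 1 miRNA past the threshold, miR-205-5p, with 6 of 6 negative (5 under TMM scaling) and a median of −2.42, or −0.21 without Wt replicate 2. The epididymis and testis list had 0 past it and a median of −1.90, or 0.16 without Wt replicate 2.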
